A study of Homo sapiens with 3 samples.

Results

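Chromatin immunoprecipitation followed by sequencing (ChIP-seq) gives a list of places on the genome where a protein was found. The regions described here are the ZMYND11 regions that stood early in the list from ETS1-knockout DU145 cells and that no ETS2 region overlapped. DU145 is an established prostate adenocarcinoma line from a brain metastasis. The 3 libraries were ZMYND11 (also called BS69) in parental DU145 cells, ZMYND11 in DU145 cells with ETS1 knocked out, and ETS2 in DU145 cells with ETS1 knocked out. The sources used here do not say how the knockout was made, how many clones stand behind it or which antibodies were used, and the media could contain puromycin where cells were selected. Each group had 1 library, no input library was analysed here, and so no value below has a replicate error.

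The members were chosen by their line number in the deposited list and by the absence of an overlap of 1 bp or more with the ETS2 list. Both come from the deposited lists themselves, so the counts that follow from them are descriptions and carry no test. Of the 15676 knockout ZMYND11 regions, the first 10% are lines 1 to 1568. Of these, 1104 overlapped no ETS2 region and are the members, and 464 overlapped an ETS2 region and serve as the comparison set (29.6% of the first 1568 lines, beside 3.71% of the whole list). The lists hold positions only, with no height, score or read count. The meaning of the line order is not stated. An absent ETS2 line therefore says that no ETS2 region was listed there, not that ETS2 was absent.

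ETS1 and ETS2 are close relatives within the ETS family of transcription factors, which bind DNA around a GGAA core through a shared domain. Ras signalling through the ERK kinases phosphorylates both. ZMYND11 is a chromatin reader that recognises a methylated form of histone H3 in the bodies of transcribed genes, and it acts as a co-repressor that binds transcription factors through its MYND domain. The title of the study places it as a partner of these ETS proteins. ETS1 itself was not profiled in these libraries, and its loss could not be checked from lists of regions.

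Most members were clear of ETS2 by more than the overlap rule asked, and a minority had it close by. No ETS2 region lay within 1 kb of 952 of the 1104 members (86.2%). The other 152 had an ETS2 region beside them, at a gap of no more than 1 kb from edge to edge (13.8%, 95% Wilson interval 11.9 to 15.9%). Among all 15094 knockout ZMYND11 regions free of ETS2 overlap, 1.38% lay so near. Among the 13990 such regions after line 1568 the share was 0.407% (57 regions). At the other end, 571 members had no ETS2 region within 100 kb (51.7%, interval 48.8 to 54.7%), against 70.4% of all ETS2-free regions. The remaining 381 members lay between these bounds. The rule used the ETS2 list, so these distances describe the members and were not tested.

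The first 10 members show the near class. The member at line 10, chr19:10224340-10224841, lay 368 bp from the ETS2 region chr19:10225209-10225704, which was at line 35 of the ETS2 list. At line 15, chr22:21352316-21352816 lay 65 bp from ETS2 line 59. At line 19, chr19:51298584-51299085 lay 130 bp from ETS2 line 15. At line 22, chr21:44254734-44255235 had a gap of 880 bp to ETS2 line 48. At line 25, chr17:80200982-80201483 had a gap of 94 bp to ETS2 line 111. At line 28, chr16:89631650-89632150 had a gap of 200 bp to ETS2 line 44. Lines that early in the ZMYND11 list were thus paired with early lines of the ETS2 list. The member at line 39, chr12:52638965-52639462, was farther down in ETS2, with a gap of 446 bp to ETS2 line 461. At line 40, chr16:88875695-88876196 was 458 bp from ETS2 line 69, and at line 46, chr7:26227138-26227639 was 129 bp from ETS2 line 45. The exception among the 10 was line 43, chr9:139617026-139617524, whose nearest ETS2 region lay 118396 bp away.

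Places in the list and nearness to ETS2 went together. Of lines 1 to 100, 76 overlapped an ETS2 region, 20 more had one at a gap of up to 1 kb, and 4 had neither. Those 4 were the member at line 43 already given, chr19:5695023-5695524 at line 47, chr5:1458010-1458511 at line 65 and chr1:150544133-150544634 at line 74, named after their values were seen. Of these, the members at lines 47 and 74 lay 1126 and 1889 bp from ETS2, so only lines 43 and 65 were far from it, the latter by 341493 bp. In lines 301 to 400 the numbers were 45 overlapping, 16 beside and 39 with neither, and in lines 1401 to 1500 they were 10, 3 and 87.

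**Figure D1:**
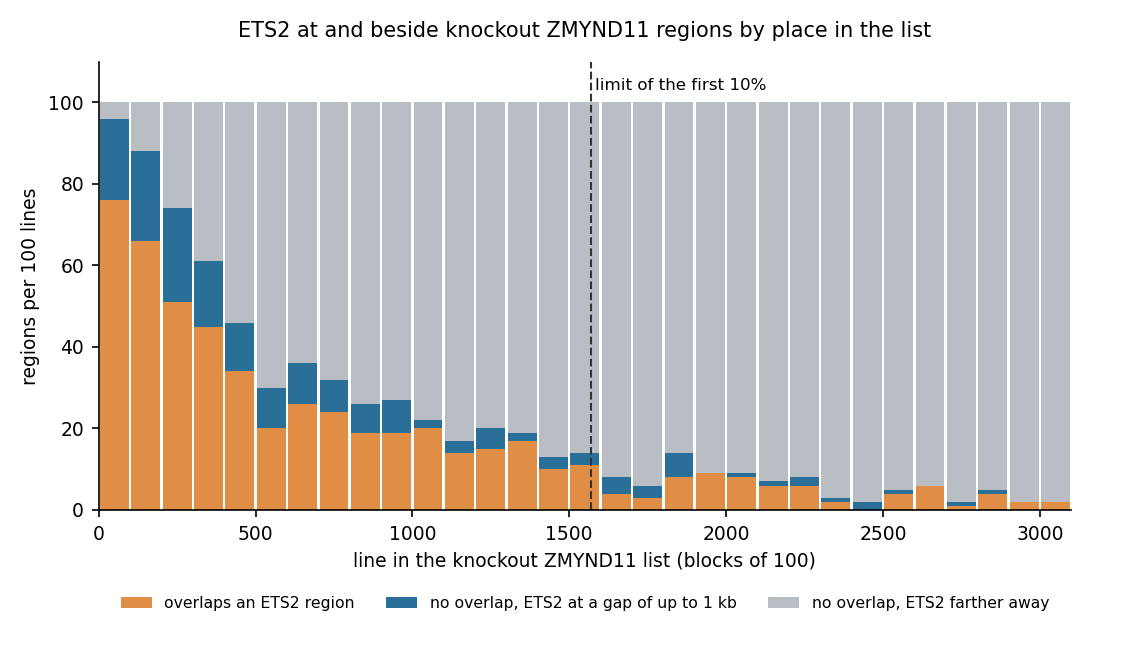
Number of knockout ZMYND11 regions per block of 100 lines (y axis) against the line in the deposited list (x axis), split by whether an ETS2 region overlapped, lay at a gap of up to 1 kb, or was farther away. The dashed line marks line 1568, and the members are the blue and grey parts to its left: in the first block 96 of 100 regions had ETS2 overlapping or beside them, and in lines 1401 to 1500 13 had.

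The same shift was seen when the first 1568 lines were split into 5 nearly equal parts. In lines 1 to 314 there were 114 members, and 67 of them (58.8%) had ETS2 within a 1 kb gap, with a median gap of 665.5 bp over all 114. In lines 315 to 628 the 214 members had 38 such cases (17.8%), and the median gap was 88367.5 bp. The 244 members of lines 629 to 942 had 26 (10.7%), the 260 of lines 943 to 1255 had 12 (4.62%), and the 272 of lines 1256 to 1568 had 9 (3.31%). In list order, the median gaps of these parts were 94307.5, 235348 and 225568 bp, so the last was below the one before it. Counting overlap and nearness together, ETS2 was at or beside 267 of 314 regions in the first part (85.0%, interval 80.7 to 88.6%). It was at or beside 50 of 313 in the last (15.97%, interval 12.3 to 20.4%).

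The limit of 1 bp ran through a smooth slope of distances. Among the first 1568 lines, 344 had an ETS2 midpoint less than 250 bp away and 120 had one at 250 to 500 bp, all of them overlapping. At 500 to 750 bp there were 65, at 750 to 1000 bp 47, at 1000 to 1500 bp 40, at 1500 to 2000 bp 21 and at 2000 to 3000 bp 16, and all of these were members. Regions were at most 501 bp wide in both lists, so a midpoint distance near 500 bp decided between overlap and no overlap. Just outside the limit, the members nearest to ETS2 were chr5:177637181-177637676 (line 306, gap 22 bp), chr10:74092262-74092758 (line 1433, 25 bp) and chr10:120790609-120791108 (line 1244, 26 bp). The next were chr12:53876839-53877339 (line 160, 27 bp) and chr20:33863973-33864473 (line 139, 30 bp). Just inside it, the comparison regions with the smallest overlap were chr11:125495416-125495912 (line 1126), which shared 9 bp with ETS2, and chr3:50388311-50388812 (line 476), which shared 11 bp. Such small overlaps were few: the median overlap of the 464 comparison regions was 365 bp, and 31 overlapped by 100 bp or less (6.68%).

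Over the comparison set the median midpoint distance to ETS2 was 132.8 bp, and the first 5 comparison regions lay on both sides of it. At line 1, chr11:62608870-62609370 had its midpoint 1.5 bp from that of ETS2 line 2. At line 2, chr1:149223753-149224254 was 38 bp from ETS2 line 4, and at line 4, chr1:148241470-148241970 was 60.5 bp from ETS2 line 11. At line 3, chr17:57920396-57920897 was set off more, with midpoints 387 bp apart. At line 5, chr14:31091150-31091650 was 192.5 bp from ETS2 line 16.

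The 152 members beside ETS2 were paired with 152 different ETS2 regions. None of these (0 of 152) overlapped any other knockout ZMYND11 region. Spacing largely fixed this, since no member had another knockout midpoint nearer than 1512 bp. They made up 34.7% of the 438 ETS2 regions that overlapped no knockout ZMYND11 region. Their median line in the ETS2 list was 565.5, with a range of 15 to 1013, against a median of 410.5 for the 582 ETS2 regions that overlapped ZMYND11. The line places of the rest of the 438 were not summarised. A later place is thus not shown to be particular to the ETS2 regions beside members. Only 10 of the 152 were in the first 102 lines, which are the first 10% of the ETS2 list. The median gap was 345 bp (quartiles 151 and 516 bp) and the median midpoint distance 842 bp (quartiles 647 and 1013 bp). ETS2 lay at the lower coordinate in 92 cases and at the higher in 60. Gene strand was not analysed here, so these sides have no upstream or downstream.

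**Figure D2:**
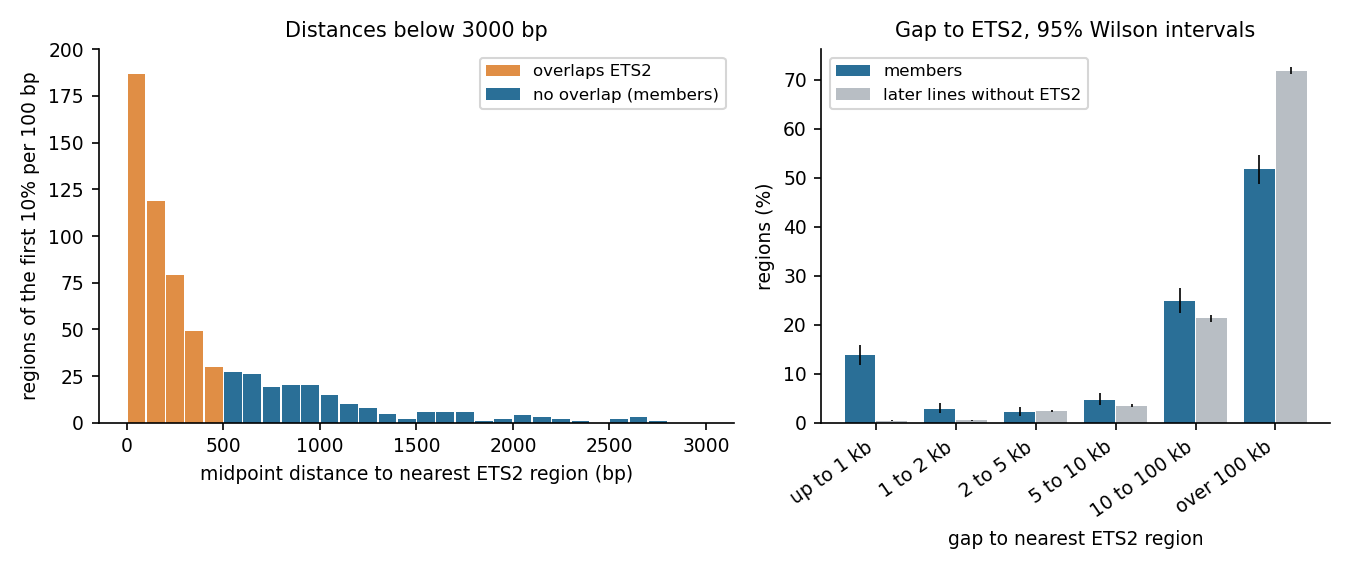
Left, number of regions of the first 10% per 100 bp of midpoint distance to the nearest ETS2 region, with overlapping regions in orange and members in blue. Right, percent of members and of later ETS2-free regions by gap to the nearest ETS2 region, with 95% Wilson intervals as bars: 13.8% against 0.407% lay within 1 kb, and 51.7% against 71.8% lay over 100 kb away.

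Gaps above 1 and up to 10 kb were uncommon among members and later ETS2-free regions alike. A gap above 1 and up to 2 kb was seen for 31 members (2.81%), above 2 and up to 5 kb for 24 (2.17%), and above 5 and up to 10 kb for 52 (4.71%). For the later ETS2-free regions the shares in the same bands were 0.522%, 2.40% and 3.48%, lower than for members in the first and last band. Above 10 and up to 100 kb there were 274 members (24.8%, interval 22.4 to 27.5%), against 21.3% of later regions (interval 20.7 to 22.0%). The rule used the ETS2 list and the line number, so these shares are descriptions and were not tested. Over all distances the median gap was 115369.5 bp for members (quartiles 12237.5 and 579134.5 bp) and 377670 bp for later ETS2-free regions.

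The far class held members with no listed ETS2 for megabases. The 5 farthest were chrX:100652401-100652899 (line 1090), 52977465 bp from the nearest ETS2 region, chr4:146101396-146101886 (line 1064) and chr4:146051523-146052010 (line 1417), at 26898239 and 26848366 bp, chrX:41211492-41211992 (line 1432), at 18398848 bp, and chr13:92010099-92010598 (line 1218), at 17907381 bp. All of them lay on chromosomes with few ETS2 lines, namely 3 on X, 16 on chromosome 4 and 9 on chromosome 13. Among the far members that stood earliest were chr1:8919008-8919509 (line 110), 851978 bp from ETS2, chr9:140138132-140138631 (line 126), at 299338 bp, and chr22:30643595-30644092 (line 180), at 8623089 bp, the last on a chromosome with 26 ETS2 lines. These 3 were picked after their values were seen. In all, 207 members (18.8%) were over 1 Mb from ETS2. The median line was 1033 for the 571 members over 100 kb away and 350.5 for the 152 members beside ETS2.

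The parental ZMYND11 list was not part of the rule. Of the 1104 members, 6 overlapped a parental ZMYND11 region (0.543%, interval 0.249 to 1.18%), against 0.357% of the whole knockout list. In the comparison set 9 of 464 did (1.94%, interval 1.02 to 3.65%), and among later ETS2-free regions 40 of 13990 (0.286%, interval 0.210 to 0.389%). The member share was thus near the background, and its interval overlapped that of the comparison set. With 1 library per group the difference was not tested. List place also moved with it. In lines 1 to 314, 2 of 114 members (1.75%) and 7 of 200 comparison regions (3.50%) overlapped a parental region. In lines 315 to 1568, 4 of 990 members (0.404%) and 2 of 264 comparison regions (0.758%) did. Within these, lines 629 to 1568 had 4 of 776 members (0.516%) and 1 of 164 comparison regions (0.610%).

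The 6 members found in parental cells as well were spread over the list and over the distances to ETS2. At line 74, chr1:150544133-150544634 overlapped parental line 436 and lay 1889 bp from ETS2. At line 150, chr20:60881911-60882407 overlapped parental line 64, with ETS2 165 bp away. At line 752, chr8:145011625-145012123 overlapped parental line 5, the earliest parental place of the 6, and ETS2 was 29967 bp away. The other 3 stood later. At line 789, chr16:1408039-1408532 overlapped parental line 344 and was 346726 bp from ETS2. At line 933, chr1:24122185-24122684 overlapped parental line 146, with ETS2 at 2171 bp. At line 1561, chr17:2239502-2240001 overlapped parental line 393, with ETS2 at 14263 bp. By distance class, 1 of 152 members beside ETS2, 4 of 381 in between and 1 of 571 in the far class overlapped a parental region. The median gap to the nearest parental region was 592973.5 bp for members, 669855 bp for the comparison set and 913637 bp for the whole list.

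Members seldom had another knockout ZMYND11 region within 2 kb. Another knockout midpoint lay within 2 kb of 23 members (2.08%, interval 1.39 to 3.11%) and of 9 comparison regions (1.94%, interval 1.02 to 3.65%), against 16.5% of the whole list. Among later ETS2-free regions the share was 18.2% (interval 17.5 to 18.8%). Within 5 kb the shares were 34.7% of members, 29.7% of the comparison set and 48.5% of the whole list. Within 10 kb they were 67.3% (interval 64.5 to 70.0%), 61.0% (interval 56.5 to 65.3%) and 64.5%, and the first pair of intervals overlapped. No member was nearer than 1512 bp to another region, while the smallest distance in the whole list was 990.5 bp. The median distance was 6926.5 bp for members, 7483.8 bp for the comparison set and 4942.8 bp for later ETS2-free regions.

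**Figure D3:**
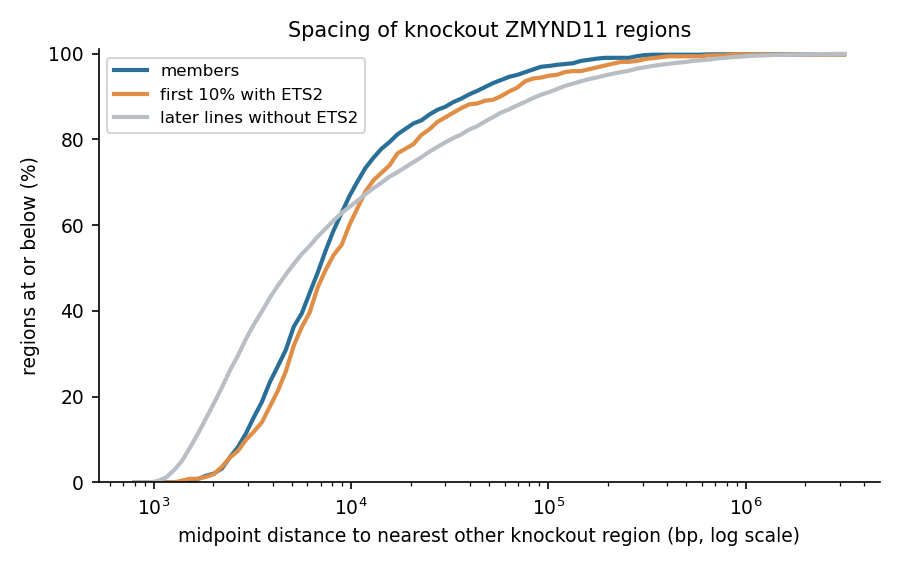
Percent of regions (y axis) whose nearest other knockout ZMYND11 region has its midpoint at or below a given distance (x axis, log scale), for members, the comparison set and later ETS2-free regions. The curves of both early sets start to the right of the later regions, with 2.08% and 1.94% against 18.2% at 2 kb, and at 10 kb members stand at 67.3%, the comparison set at 61.0% and later regions at 64.5%.

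For 998 of 1104 members the nearest neighbour stood after line 1568 (90.4%), where 14108 of all 15676 regions stand. It did so for 84.7% of comparison regions and 91.5% of later ETS2-free regions. For 69 members the neighbour was another member (6.25%) and for 37 a comparison region (3.35%). For comparison regions the nearest neighbour was another comparison region in 36 of 464 cases (7.76%) and a member in 35 (7.54%). When knockout regions with midpoints up to 10 kb apart were chained into runs, 361 members stood alone (32.7%) and 743 were in a run. Of comparison regions 39.0% stood alone, and of later ETS2-free regions 35.5%. A run was shared with a comparison region by 78 members (7.07%) and by 5.21% of later ETS2-free regions. Another member was in the run of 155 of 1104 members. A member was in the run of 68 of 464 comparison regions and of 1774 of 13990 later ETS2-free regions, so the shares lay near one another. Counting each region that stood alone as a run of 1, there were 1024 runs with a member. Most held 1 member (949), while 70 held 2 and 5 held 3. An ETS2 region overlapped the span of 156 of these runs (15.2%). The 361 members that stood alone are among the 1024, and the rule itself keeps ETS2 from overlapping them. This share is therefore a description only.

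The 5 runs with 3 members each differed in their ETS2. On chromosome 14, from 105912020 to 105967644, there were 12 knockout ZMYND11 regions over 55.6 kb, with 3 members and no ETS2 region. On chromosome 6, from 27777647 to 27805514, there were 5 regions with 3 members and no ETS2 region, and on chromosome 8, from 145131102 to 145160226, 6 with 3 members and none. On chromosome 9, from 136195545 to 136227148, 3 members and 1 comparison region stood in a run of 6, and on chromosome 19, from 796741 to 821143, 3 members stood in a run of 8 that held 1 ETS2 region. The longest run with members was on chromosome 20, from 60881911 to 60975095, with 22 knockout regions over 93.2 kb, 2 of them members, and no ETS2 region inside its span. It starts at the member of line 150 described above, whose ETS2 partner lies just outside.

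By chromosome, members were most numerous on 19 (124, 11.2%), 1 (113, 10.2%) and 17 (102, 9.24%), as were the comparison regions, with 54, 57 and 42. The whole knockout list had 8.67%, 9.42% and 8.18% there, and the member intervals for chromosomes 1 and 17 contained these shares. The sets parted most on chromosomes 9 and 14. Chromosome 9 held 69 members (6.25%, interval 4.97 to 7.84%) and 13 comparison regions (2.80%, interval 1.64 to 4.73%), beside 4.91% of the whole list. Chromosome 14 held 65 members (5.89%, interval 4.65 to 7.44%) and 13 comparison regions (2.80%), beside 4.55% of the whole list. Of the early lines on these chromosomes, 84.1% and 83.3% were members, beside 70.4% of all first 1568 lines. Chromosomes 15 (83.8%, 31 members) and X (85.7%, 6 members) had like shares by this measure. Chromosome 11 went the other way, with 62 members (5.62%) and 40 comparison regions (8.62%). Members there were near the 5.75% of the whole list, and 60.8% of its early lines were members. Chromosome 18 stood lower by this measure, at 50%, with 9 members and 9 comparison regions. The ETS2 list itself, which the rule used, had 3.14% of its regions on chromosome 9, 2.75% on 14 and 8.53% on 11, close to the comparison set. Since the rule used that list, the contrast between the sets is a description. These chromosomes were singled out after their values were seen, and no test was made.

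List place moved with the chromosome shares too. In lines 1 to 314, chromosome 9 held 5 of 114 members and 7 of 200 comparison regions, and chromosome 14 held 7 and 9. In lines 315 to 628 chromosome 9 held 12 of 214 members and 5 of 100 comparison regions, and chromosome 14 held 13 and 4. In lines 629 to 1568 chromosome 9 held 52 of 776 members and 1 of 164 comparison regions, and chromosome 14 held 45 and 0. Of the 571 members over 100 kb from ETS2, 44 were on chromosome 9 (7.71%) and 40 on chromosome 14 (7.01%). Of the 152 members beside ETS2, 5 and 6 were (3.29% and 3.95%). On chromosome 17, picked after its values were seen, there were 26 of the 152 members beside ETS2 (17.1%) and 36 of the 571 far members (6.30%). That chromosome held 8.18% of the knockout and 10.1% of the ETS2 list. The distance classes are set by the ETS2 list, so this was not tested.

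**Figure D4:**
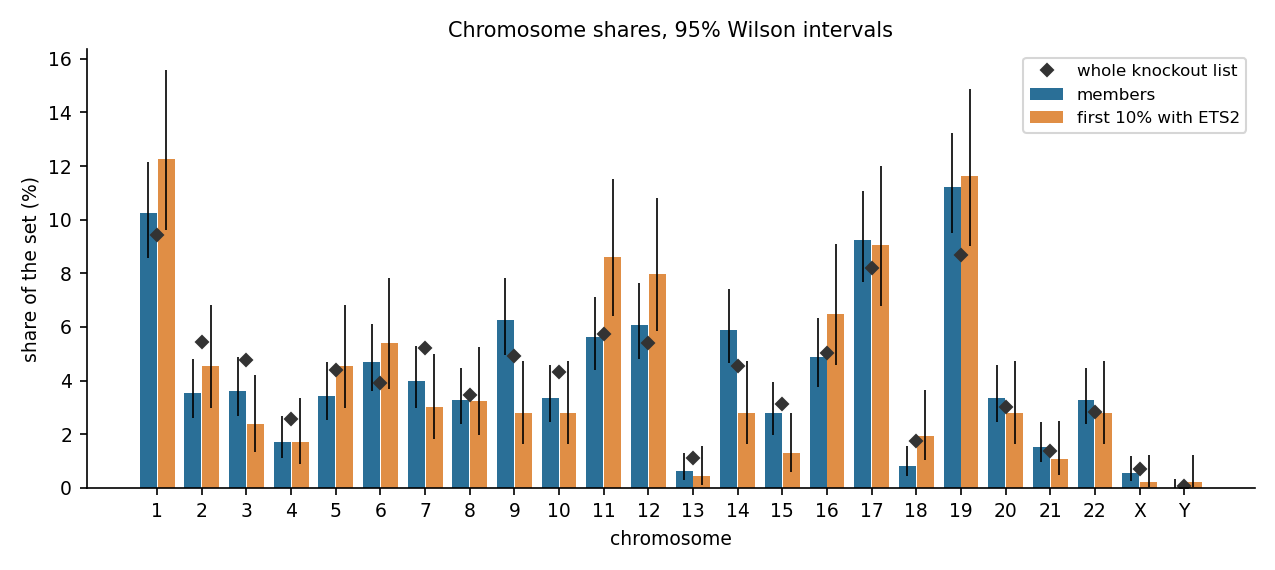
Share of each set (y axis, percent) by chromosome (x axis), for members and for early regions with ETS2, with 95% Wilson intervals as bars and the whole knockout list as diamonds. The intervals are apart on chromosome 9 (6.25% against 2.80%), overlap slightly on 14 (5.89% against 2.80%) and overlap widely on 1, 17 and 19.

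Each of the densest megabases of members named here held at least 1 ETS2 line. Chromosome 19 from 1 to 2 Mb held 12 members, 4 comparison regions and 9 ETS2 lines, and chromosome 16 from 0 to 1 Mb held 11 members, 1 comparison region and 2 ETS2 lines. Chromosome 14 from 105 to 106 Mb and chromosome 6 from 31 to 32 Mb each held 9 members, 1 comparison region and 1 ETS2 line. Chromosome 11 from 65 to 66 Mb also held 9 members, but with 6 comparison regions and 17 ETS2 lines. The megabases from 50 to 51 Mb on chromosomes 19 and 14 held 9 members as well, with 5 and 7 ETS2 lines. The megabases named so far also held 33 to 62 later knockout regions each, so their many regions were not only members. In all, 533 megabases held a member, and 292 of these held just 1. There were 308 members (27.9%) in the 223 megabases that held no ETS2 line at all, against 46.1% of later ETS2-free regions in megabases with none.

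Among the megabases free of ETS2 lines, chromosome 17 from 40 to 41 Mb held the most members, 6, along with 42 later knockout regions and 1 parental region. In list order they began with chr17:40671752-40672246 (line 622) and chr17:40998876-40999374 (line 930). The second of these lay 502 bp from an ETS2 region across the boundary at 41 Mb. The other 5 lay 269584 to 538446 bp from any ETS2 region. Chromosome 22 from 50 to 51 Mb and from 30 to 31 Mb each held 4 members and no ETS2 line.

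Around line 1568, ETS2 overlapped 11 of lines 1501 to 1600, 4 of lines 1601 to 1700, 3 of lines 1701 to 1800 and 8 of lines 1801 to 1900. Members stood up to the line limit, and ETS2-free regions followed it. The last 3 inside it were chr19:868021-868521 (line 1566), 53986 bp from ETS2, chr15:85259329-85259829 (line 1567), at 394045 bp, and chr12:50877386-50877885 (line 1568), at 599321 bp. The first 3 ETS2-free regions after it were chr17:72764824-72765324 (line 1570), at 394897 bp, chr2:86369877-86370362 (line 1571), at 590 bp, and chr19:1848464-1848963 (line 1572), at 27000 bp. Median widths were 498.5 bp for members, 499 bp for the comparison set and 496 bp for later ETS2-free regions. The lower quartile was 495 bp for members and 489 bp for later regions, a small difference under the common ceiling of 501 bp.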

How the data were processed

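The authors deposited, for each of the 3 libraries, a list of regions with 3 columns (chromosome, start, end), without any value per region. The build was hg19 and the aligner named was Bowtie2 2.0.6, per the submitters' processing notes. The sources used here give no peak caller, control or depth, so no detection limit could be derived. Coordinates are printed as deposited. Whether starts count from 0 or 1 is not stated.

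Overlap means 1 bp or more. Gaps run from edge to edge and distances from midpoint to midpoint. Shares have 95% Wilson intervals, which cover counting error only and treat neighbouring regions as independent. Groups come from sample titles. With 1 library per group no test was made. The members, named regions and sets were chosen with earlier results of these data known. The named regions were the first 10 members, the first comparison regions, the members shared with parental cells, those nearest to and farthest from ETS2, those at the line limit and the densest megabases. Some others are marked as picked after their values were seen. The regions with the smallest overlaps, the named runs and the megabases free of ETS2 lines were also picked from their values. Planted regions were used to check the distance and overlap step, which recovered 200 of 200 overlaps and 600 of 600 gaps.

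An hg19 genome and annotation were not used here. Gene features, gene lists, base composition, ETS and AP-1 motifs and sequences, planned earlier, were therefore not analysed. The gene table at hand, on GRCh38, was not used. Python 3.11.15, numpy 2.4.6, pandas 2.3.3, scipy 1.17.1 and matplotlib 3.10.9 were used.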

Additional observations from a re-analysis of the deposited data

How the results depend on the processing

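The number of members followed the part of the list taken, with 443 in the first 5% and 2601 in the first 20%. It stayed within 1.5 times the reported 1104 when a reciprocal overlap of 50% was required (1225), when midpoints within 1 kb counted as shared (992) and with the first 50% of the ETS2 list (1257), an alternative chosen after seeing the data. The median gap to ETS2 moved under all 5 alternatives run for it. It was 35168 bp in the first 5%, 210739 bp in the first 20%, 77825 bp with reciprocal overlap, 175575.5 bp without members that had an ETS2 midpoint within 1 kb, and 390586 bp against the first 50% of the ETS2 list. The share of members with another knockout region within 2 kb was 0.452% in the first 5% and 5.96% in the first 20%, and was 34.7% when 5 kb was allowed. The share shared with parental ZMYND11 stayed between 0.504% and 0.906% under its 6 alternatives, inside its reported interval. The share of the comparison set was higher than that of members in each of the 4 alternatives that also gave a comparison set. In the first 5%, for example, it was 2.64% against 0.677%. In lines 629 to 1568 of the main setting the shares were closer, at 0.610% and 0.516%. The shares on chromosomes 9 and 14 were higher in members in the same 4 alternatives. In the first 5% they were 6.10% and 6.32% against 3.52% and 3.81%. These 4 alternatives reused many of the same regions, and none held list place fixed. The chromosome contrast also rests on the ETS2 list that the rule used, so its agreement across them was not a test. Gene starts, base composition and motifs had been listed for other settings and were not run. Leaving out replicates was not possible, and unknown depth limits all counts of absent regions.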
